A study of Mus musculus with 4 samples.

Results

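Autotaxin and the receptors for lysophosphatidic acid (LPA) and sphingosine-1-phosphate (S1P) were followed in mouse lung fibroblasts over development. The set holds 9 genes of the 23444 gene symbols in the deposited expression table: Enpp2, which encodes autotaxin, the LPA receptor genes Lpar1, Lpar2, Lpar3, Lpar4 and Lpar6, and the S1P receptor genes S1pr1, S1pr2 and S1pr3. The members were chosen by gene name, with their FPKM at the 4 ages already known, so their levels are given as a description and no test is attached to them. The samples were Pdgfra+ fibroblasts (Pdgfra encodes a receptor of platelet-derived growth factor) from lungs of wild-type (WT) C57BL6 mice. They were taken from timed pregnancies at E16.5 and E18.5 (embryonic days) and after birth at P7 and P28 (postnatal days). The labels name no treatment or altered allele, and the sources used here do not give the way the cells were isolated or how many animals went into a library. Each age was 1 library, so no value below has a spread between animals and every difference is one between libraries.

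Autotaxin is a secreted lysophospholipase D that makes LPA from lysophosphatidylcholine outside the cell. LPA acts through G protein-coupled receptors of a pair of families: Lpar1, Lpar2 and Lpar3 are related to the S1P receptors, and Lpar4, Lpar5 and Lpar6 to the purinergic receptors. S1P is made inside cells by sphingosine kinases, leaves through transporters such as Spns2 and is broken down by the lyase Sgpl1, while phospholipid phosphatases at the cell surface remove phosphate from LPA and S1P alike. In lung, Lpar1 is known for LPA responses of fibroblasts, and S1pr1 for the barrier function of endothelial cells.

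Values are FPKM, a fragment count divided by transcript length and library size, so levels can be compared between genes per length. The scale of the E18.5 library differed from the rest. Among 7930 genes at 1 FPKM or more in every library, 94.3% lay below the mean of the other 3 there, and the median log2 ratio of E18.5 to E16.5 was -0.95. Median-ratio scaling, which divides each library by its median ratio to the geometric mean of all 4, is therefore given beside the deposited values, with factors of 1.15 in E16.5, 0.581 in E18.5, 1.38 in P7 and 1.08 in P28. Pdgfra was at 88.7 to 188 FPKM, and all 11 fibroblast markers were above 0 in every library. Markers of other cells were present as well: 10 leukocyte genes summed to 1558 FPKM at E16.5 and to between 20.2 and 5067 at the other ages (Lyz2 alone 5062 at P28), 16 endothelial genes to 40.7 and 46.7 before birth and 1480 and 364 after it, and 6 erythroid genes to 487 at E18.5 and between 1.65 and 21.3 elsewhere. Airway and alveolar type 2 markers summed to 19574 and 12438 FPKM at P28, against at most 30.6 and 115 at the earlier ages. In bulk libraries such as these, fewer cells of a type and less RNA per cell cannot be told apart.

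Enpp2 (chromosome 15 of GRCm38, 54838901 to 54952892, minus strand) measured 11.7 FPKM in E16.5, 235 in E18.5, 19.0 in P7 and 14.1 in P28. The E18.5 library was high, and the other 3 lay close to each other. After median-ratio scaling the same libraries stood at 10.2, 405, 13.8 and 13.1. At E18.5 Enpp2 ranked 48 among all symbols by FPKM, against 2840 at E16.5, 2143 at P7 and 2354 at P28, ranks that no scaling of a library changes. Set against Pdgfra in the same library, its level was 0.132 of the Pdgfra level at E16.5, 2.45 times it at E18.5, 0.169 of it at P7 and 0.0752 of it at P28. Gm26684, a noncoding RNA gene on the opposite strand, shares exon bases with Enpp2. The sources used here do not say whether strand was used, so reads of the 2 genes cannot be told apart there.

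**Figure D1:**
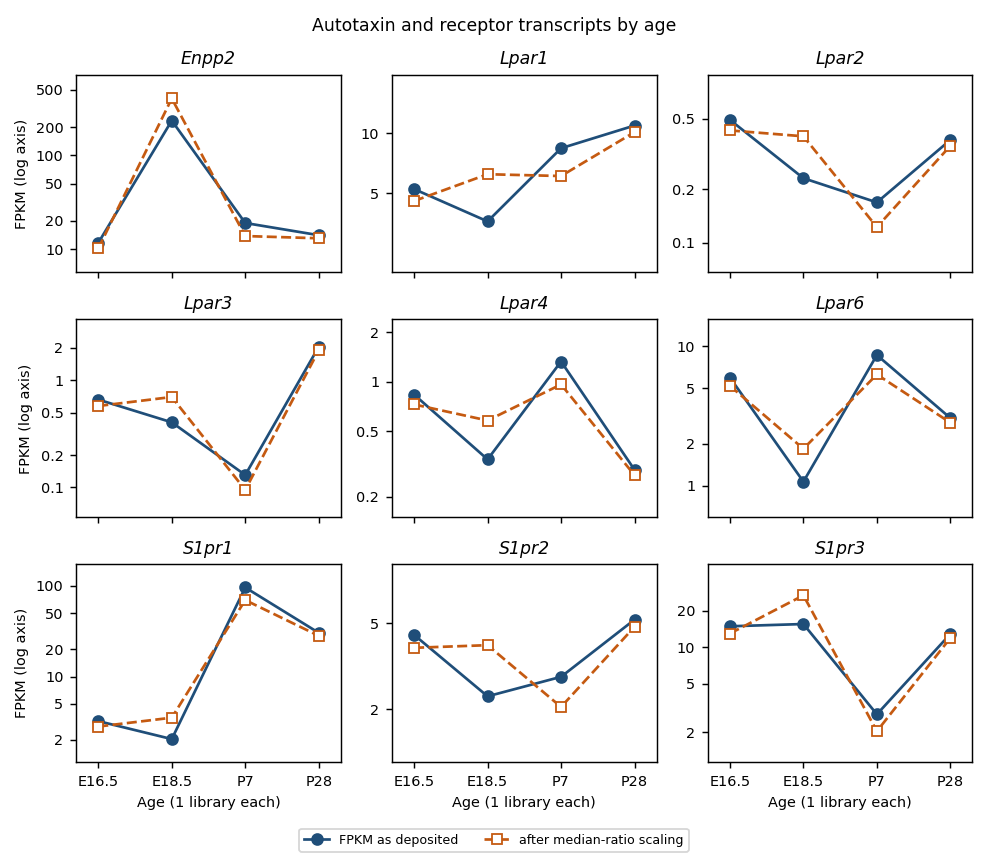
FPKM of each of the 9 genes (log axis, a separate range for each gene) by age, as deposited (filled circles) and after median-ratio scaling (open squares), with 1 library per point and no error bars. Enpp2 stands at 235 FPKM at E18.5 and at or below 19.0 elsewhere, and S1pr1 and S1pr3 go opposite ways at P7.

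Lpar1 (chromosome 4, 58435255 to 58553898, minus strand) was at 5.24 FPKM in E16.5, 3.61 in E18.5, 8.40 in P7 and 10.9 in P28. P28 was the high library and E18.5 the low one. After scaling the values were 4.57, 6.22, 6.10 and 10.1, so the place of E18.5 among the 4 depends on the scale, while P28 stayed highest. Its ratio to Pdgfra ranged from 0.0377 at E18.5 to 0.0744 at P7.

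Lpar6 (chromosome 14, 73237895 to 73243294, plus strand), a receptor of the purinergic-like group, was at 5.94 FPKM in E16.5, 1.07 in E18.5, 8.61 in P7 and 3.04 in P28. Scaling left the same order of libraries, at 5.18, 1.83, 6.25 and 2.82. E16.5 and P7 were thus the high libraries and E18.5 and P28 the low ones. Lpar6 lies inside the span of Rb1, the retinoblastoma gene on the opposite strand, with exon bases in common, and without strand reads of the 2 cannot be told apart where they overlap. Rb1 itself was at 4.70, 2.37, 10.8 and 5.96 FPKM in order of age as deposited, lowest at E18.5 and highest at P7. Its P28 value lay above that of E16.5, unlike for Lpar6. A low E18.5 value was common as deposited. There 94.3% of genes at 1 FPKM or more in every library lay below the mean of the other 3. The part of Rb1 in the Lpar6 values was not tested.

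The other 3 LPA receptors in the set were rare. Lpar3 (chromosome 3, 146220963 to 146286186, plus strand) was at 0.660 FPKM in E16.5, 0.405 in E18.5, 0.131 in P7 and 2.05 in P28. Lpar4 (chromosome X, 106920625 to 106933900, plus strand) was at 0.835, 0.338, 1.33 and 0.292 FPKM in the same order. Lpar2 (chromosome 8, 69822429 to 69831102, plus strand) stayed between 0.169 FPKM at P7 and 0.492 at E16.5. P28 was thus the high library for Lpar3 and the low one for Lpar4. Lpar5, the LPA receptor gene outside the set, had 0.539 FPKM in the E16.5 library and 0.170 in that of P7, and was listed at 0 in the other 2 libraries. The number of reads behind an FPKM is unknown here, so differences among values this low carry no stated precision.

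S1pr1 (chromosome 3, 115710433 to 115715072, minus strand), the receptor through which S1P acts on endothelium and lymphocytes, was at 3.22 FPKM in E16.5, 2.04 in E18.5, 96.2 in P7 and 30.4 in P28. After scaling it stood at 2.81, 3.52, 69.8 and 28.2. The libraries from before birth were low and those from after it were high, with P7 above P28 on either scale. Its rank among all symbols was 7421 in E16.5, 6194 in E18.5, 289 in P7 and 968 in P28.

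S1pr3 (chromosome 13, 51408639 to 51422797, plus strand), a receptor that couples to several G protein classes, was at 14.9 FPKM in E16.5, 15.5 in E18.5, 2.80 in P7 and 12.9 in P28. P7 was the low library. After scaling the values were 13.0, 26.7, 2.03 and 11.9, which left P7 lowest and set E18.5 above the rest. Gm32834, a noncoding RNA gene on the opposite strand, shares exon bases with S1pr3.

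S1pr2 (chromosome 9, 20962361 to 20976781, minus strand), a receptor that opposes cell migration in many cell types, was at 4.42 FPKM in E16.5, 2.30 in E18.5, 2.83 in P7 and 5.20 in P28. After scaling it was at 3.85, 3.96, 2.05 and 4.82. The low library was E18.5 as deposited and P7 after scaling, and P28 was highest either way. The remaining S1P receptor genes S1pr4 and S1pr5 were at most 1.35 and 0.112 FPKM, and S1pr5 was listed at 0 at P28.

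Promoter sequence for 7 of the 9 genes was found in the RefSeq table for GRCm38.p6, which has no entry here for Enpp2 or S1pr1. The windows of S1pr3 and Lpar6 are shown because they went opposite ways between E18.5 and P7 on either scale. Each run is the 250 bases before the RefSeq start, 5′ to 3′ on the gene's own strand (chr13:51408368-51408617 for S1pr3 and chr14:73237641-73237890 for Lpar6, plus strand). Capitals mark a match to GGGCGG, the GC box, on either strand. The TATA box was searched for as the letters TATAAA on both strands. The E-box was searched for as CACGTG, which reads the same on both strands.
S1pr3: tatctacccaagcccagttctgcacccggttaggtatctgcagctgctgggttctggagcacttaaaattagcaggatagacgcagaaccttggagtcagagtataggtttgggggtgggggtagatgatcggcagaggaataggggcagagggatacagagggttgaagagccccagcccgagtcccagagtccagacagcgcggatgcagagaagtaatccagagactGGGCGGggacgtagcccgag
Lpar6: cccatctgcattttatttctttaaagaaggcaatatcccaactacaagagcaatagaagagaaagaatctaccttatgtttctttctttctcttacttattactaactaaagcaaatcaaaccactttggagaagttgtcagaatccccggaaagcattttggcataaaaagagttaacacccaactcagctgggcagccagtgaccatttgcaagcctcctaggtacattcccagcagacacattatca
The S1pr3 window holds 1 GC box, 9 CG pairs and 56.4% G and C, and the Lpar6 window none of the 3 motifs, 1 CG pair and 39.2% G and C. Over 32851 RefSeq windows of this length, 32.7% hold the GC box, 12.4% the TATA box and 6.02% the E-box, and the medians are 6 CG pairs and 52.4% G and C. These letter counts describe the windows and say nothing of binding.

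The makeup of the receptors within a library does not depend on its scale, but the sums do. LPA receptor genes (6 in all) summed to 13.7 FPKM in E16.5, 5.65 in E18.5, 18.8 in P7 and 16.7 in P28. After scaling these sums were 12.0, 9.73, 13.7 and 15.5, so the highest library moved from P7 to P28. Lpar1 and Lpar6 supplied most of the sum at every age. Lpar1 held 38.2% and Lpar6 43.3% of the sum at E16.5, and 44.6% and 45.8% at P7, while Lpar1 held 63.9% against 18.8% at E18.5 and 65.4% against 18.3% at P28. Lpar3 reached 12.3% at P28.

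S1P receptor genes (5 in all) summed to 22.9, 20.2, 103 and 49.0 FPKM in order of age, or 1.67, 3.57, 5.49 and 2.94 times the LPA receptor sum. S1pr3 was the most abundant before birth, with 64.8% of the S1P receptor sum at E16.5 and 76.8% at E18.5. S1pr1 was the most abundant afterwards, with 93.2% at P7 and 62.1% at P28, up from 14.1% and 10.1%. S1pr3 held 2.71% at P7 and 26.2% at P28. S1pr2 went from 19.3% at E16.5 and 11.4% at E18.5 to 2.74% at P7 and 10.6% at P28. Enpp2 stood at 0.852, 41.6, 1.01 and 0.846 times the LPA receptor sum, so E18.5 was the library in which the enzyme transcript far exceeded those of the receptors.

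**Figure D2:**
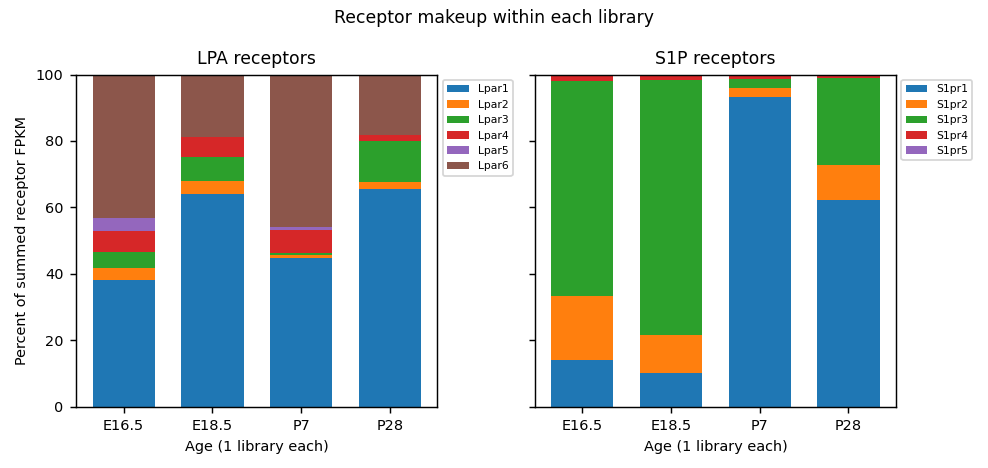
Percent of the summed FPKM of the 6 LPA receptor genes (left) and the 5 S1P receptor genes (right) held by each gene, with 1 stacked bar per library. S1pr3 holds 64.8% and 76.8% of the S1P receptor sum before birth and S1pr1 93.2% and 62.1% after it.

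Differences between ages were described with a fixed size rule. A gene was called higher or lower where log2(FPKM + 1) differed by at least 1, which is 2-fold, and the higher of the 2 libraries held at least 5 FPKM. A fold change on this scale understates the change of low genes. Lpar2, Lpar3 and Lpar4 never reached 5 FPKM and could not be called. The median difference of the 9 members was -0.44, 0.21, 0.24 and 0.19 in the 4 comparisons in turn, beside -0.96, 1.23, -0.36 and -0.09 over all genes at 5 FPKM or more. After scaling the members' medians were 0.11, -0.32, 0.27 and 0.26, beside -0.02, 0.05, -0.01 and 0.02. The members' medians, like the list medians below, take in any genes under 5 FPKM, while those over all genes do not. They are thus not like for like. Shares of all genes given below are likewise over genes at 5 FPKM or more.

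From E16.5 to E18.5, Enpp2 was called higher and Lpar6 lower, of 4 members at 5 FPKM or more. Of all 5979 genes at that level 2.32% were called higher and 47.4% lower, and after scaling, where the same 2 members were called, 9.34% and 12.2%. Enpp2 differed by 4.22 on the log2 scale as deposited and 5.18 after scaling, which ranked 23 of 5979 genes from the top as deposited and 19 of 6036 after scaling. Lpar6 differed by -1.75 and -1.12, and was not called with a pseudocount of 5 (-0.85). S1pr3 differed by 0.06 as deposited and 0.99 after scaling, next to the threshold, and with upper-quartile scaling it was called higher at 1.09. Lpar1, S1pr1 and S1pr2 had values of -0.44, -0.47 and -0.72 as deposited and 0.37, 0.25 and 0.03 after scaling, so their direction rests on the scale.

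Several marker lists also differed between E16.5 and E18.5, but not all of them followed the course of Enpp2. For the counts below, 2.32% of all genes were called higher at E18.5 than at E16.5 and 47.4% lower (9.34% and 12.2% after scaling). At P7 against E18.5 the shares of all genes were 63.3% higher and 2.89% lower (14.7% and 12.0%). Of 6 erythroid genes 4 were called higher at E18.5 than at E16.5 on either scale, with Hba-a1 at 2.24 and 264 FPKM. The same 4 were called lower at P7 than at E18.5. All 10 leukocyte genes were called lower, from a sum of 1558 to 80.0 FPKM. At P7 they summed to 20.2 FPKM, and 4 of 4 at 5 FPKM or more were again called lower (6 of 6 after scaling). Of 9 pericyte genes 3 reached 5 FPKM (4 after scaling), of which 2 were called higher (3) and 0 lower. The list was split, with Kcnj8 at 1.5 and 11.1 FPKM but Rgs5 at 9.81 and 5.59 and Notch3 at 3.11 and 0.667. At P7 against E18.5, 1 of 4 pericyte genes was called higher and 0 lower (1 and 3 of 5 after scaling). Of alveolar type 2 genes both at 5 FPKM or more were called higher (3 of 3 after scaling), with Sftpc at 22.4 and 99.4 FPKM, and 0 lower. Their calls at P7 against E18.5 were 2 of 2 lower (3 of 3 after scaling), with Sftpc at 15.5 FPKM. Scgb1a1, a club cell secretoglobin, was at 2.02 FPKM in E16.5, 25.4 in E18.5 and 26.2 in P7. Of the myofibroblast genes 2 of 10 at 5 FPKM or more were called higher at E18.5 and 3 lower, or 7 and 1 of 13 after scaling. At P7 against E18.5, 8 of 13 were higher, near the share of all genes, and 1 lower, or 4 and 3 after scaling. Immediate early genes, which sample handling can raise among other causes, summed to 1454 and 1347 FPKM at E16.5 and E18.5. Of 16 at 5 FPKM or more, 0 were called higher and 3 lower as deposited, and 5 and 0 after scaling. The part of these in the Enpp2 difference was not tested.

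From E18.5 to P7, S1pr1 and Lpar6 were called higher and Enpp2 and S1pr3 lower on either scale, and Lpar1 was called higher as deposited only. Against these 3 higher and 2 lower members of 5 at 5 FPKM or more, 63.3% of 6604 genes were called higher and 2.89% lower. After scaling, 14.7% and 12.0% of all genes were called, against 2 and 2 members. S1pr1 differed by 5.0 on the log2 scale, or 3.97 after scaling, which ranked 23 of 6604 genes from the top and 29 of 6130. Enpp2 differed by -3.56 and -4.78, and S1pr3 by -2.12 and -3.19. Lpar6 differed by 2.22 and 1.36. Lpar1 differed by 1.03 as deposited and -0.03 after scaling, and S1pr2 by 0.21 and -0.70.

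With E16.5 in place of E18.5 as the library from before birth, a comparison chosen after seeing the data, P7 kept the S1pr1 call at 4.52 and the S1pr3 call at -2.06. Against this 1 higher and 1 lower member of 5 at 5 FPKM or more, 15.7% of 7055 genes were called higher and 6.68% lower, and after scaling, with the same members called, 12.3% and 9.62%. Enpp2 differed by 0.66 and Lpar6 by 0.47, neither called.

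From P7 to P28, S1pr3 was called higher, and S1pr1 and Lpar6 lower, of 6 members at 5 FPKM or more. Among 7133 genes 10.5% were called higher and 16.9% lower, and after scaling 14.6% and 10.3%, when S1pr3 and S1pr1 were still called but Lpar6 was not. S1pr3 differed by 1.87 on the log2 scale, or 2.09 after scaling, and S1pr1 by -1.63 or -1.28. Lpar6 differed by -1.25 or -0.92. Enpp2 differed by -0.41 or -0.07. Lpar3 differed by 1.43 or 1.41, below the level needed for a call. All 7 alveolar type 2 markers were called higher at P28 than at P7 on either scale, and their part in the P28 values was not tested.

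Over the whole course, P28 against E16.5, S1pr1 was called higher, and 0 of 6 members at 5 FPKM or more were called lower. The shares over 7073 genes were 18.0% higher and 16.9% lower, and 19.7% and 15.0% after scaling, when again S1pr1 alone was called higher and 0 members lower. S1pr1 differed by 2.89 on the log2 scale, or 2.94 after scaling. Lpar1 differed by 0.93 as deposited and 0.996 after scaling, just short of a call, which it reached at 1.04 with a pseudocount of 0.1. Enpp2 (0.25), S1pr3 (-0.20), S1pr2 (0.19) and Lpar6 (-0.78) ended within 2-fold of their E16.5 level. The high value of Enpp2 at E18.5 and the low value of S1pr3 at P7 thus do not show in a comparison of the ends.

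**Figure D3:**
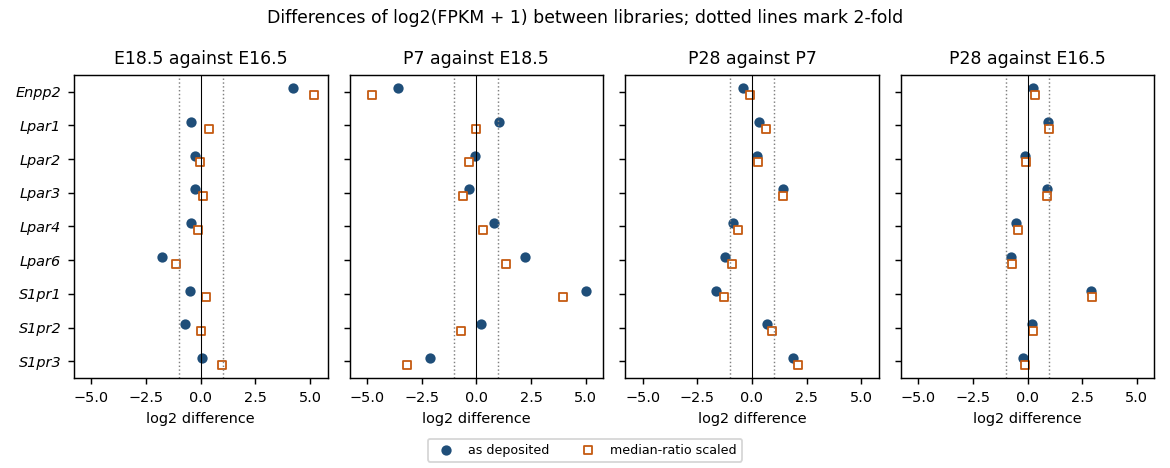
Difference of log2(FPKM + 1) for each gene in the 4 comparisons, as deposited (filled circles) and after median-ratio scaling (open squares), with dotted lines at 2-fold and 1 library per age. Enpp2 goes from 4.22 to -3.56 across the first 2 panels, and S1pr1 and S1pr3 lie on opposite sides of 0 in the 2 middle panels.

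S1pr1 was higher in the same libraries as endothelial markers. Of 16 endothelial genes all 16 were called higher at P7 than at E18.5 on either scale, with a median log2 difference of 4.08 (2.94 after scaling), against 1.23 (0.05) over all genes at 5 FPKM or more. Of all genes 63.3% were called higher there, or 14.7% after scaling. Between P7 and P28, 15 of 16 endothelial genes were called lower, or 14 after scaling, beside 16.9% of all genes (10.3%). Cdh5, vascular endothelial cadherin, was at 5.0, 5.79, 276 and 67.3 FPKM in order of age, Calcrl at 5.26, 5.63, 272 and 61.5, and Cd93 at 4.45, 4.37, 199 and 41.0. None of the 16 was listed at 0 in any library, and single markers ranged from 0.160 to 11.4 FPKM at E16.5 and from 15.6 to 276 at P7.

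The S1pr1 level was 7.92% of the summed endothelial markers in E16.5, 4.37% in E18.5, 6.50% in P7 and 8.35% in P28, while the marker sum went from 40.7 to 1480 FPKM. For S1pr3 the same figure was 36.5%, 33.2%, 0.189% and 3.53%. Lymphatic endothelial genes summed to 8.68, 8.79, 178 and 40.7 FPKM, with Lyve1 at 146 at P7 and Ccl21a listed at 0 in every library. At P7 against E18.5, 3 of 3 at 5 FPKM were called higher (2 of 2 after scaling), beside 63.3% of all genes (14.7%). Prox1 stayed under 5 FPKM, at 0.621, 2.05, 3.41 and 2.14. After scaling Prox1 was lower at P7 (2.48) than at E18.5 (3.53). The part of endothelial RNA in the S1pr1 values was not tested.

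**Figure D4:**
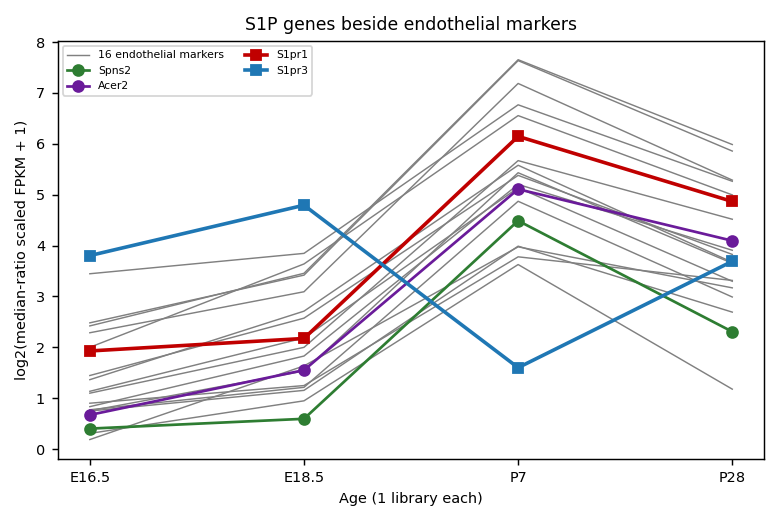
log2(median-ratio scaled FPKM + 1) by age for S1pr1 and S1pr3 (squares), the transporter Spns2 and the ceramidase Acer2 (circles) and 16 endothelial markers (grey lines), with 1 library per age. S1pr1, Spns2, Acer2 and the grey lines are highest at P7, where S1pr3 is lowest.

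Genes with the most similar course were sought for the 6 members that reached 5 FPKM, by the root-mean-square distance between centred log2(scaled FPKM + 1) values over the 4 libraries. For Enpp2 the nearest were Penk and the globin genes Hbb-bs, Hbb-b1 and Hbb-bt, at distances of 0.62 to 0.89. Penk, which encodes the precursor of enkephalins, was at 9.27, 64.3, 14.2 and 6.73 FPKM. Since globin gene copies are almost the same in sequence, how reads were divided among them is uncertain. For S1pr1 the nearest were Prx, Tnfsf10 and Cyyr1, at 0.098 to 0.21, and Prx was at 0.454, 0.507, 34.2 and 9.77 FPKM.

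For S1pr3 the nearest were Fkbp5, a co-chaperone of steroid receptors, Lum, a small proteoglycan of the matrix, and Btg2, at 0.13 to 0.26. Fkbp5 was at 8.58, 10.4, 1.58 and 6.80 FPKM and Lum at 13.2, 12.0, 2.77 and 12.3, each with its low value at P7. Btg2, which is also in the immediate early list, was at 68.8, 81.8, 17.9 and 43.2 FPKM. That list summed to 1347 FPKM in E18.5, 762 in P7 and 1335 in P28. At P7 against E18.5, 3 of 15 at 5 FPKM were called higher and 5 lower (2 and 9 after scaling). Over all genes 63.3% were higher and 2.89% lower there (14.7% and 12.0%). At P28 against P7, 7 of 16 were higher and 1 lower (7 and 0), beside 10.5% and 16.9% of all genes (14.6% and 10.3%). The part of sample handling in the S1pr3 course was not tested. After scaling, the flatter courses of Lpar1 (nearest Man2a1, Bsg and Serinc3), Lpar6 (Polh, Zc3hav1l and Zbed3) and S1pr2 (Plp2, Grcc10 and Suclg1) had neighbours within 0.088. With 4 points a close match is easily met, and all 3 genes near S1pr3, but 0 near Lpar6, were also named without scaling.

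Genes listed under LPA and S1P breakdown were followed beside the receptors. Among them Plppr1, Plppr4 and Plppr5, phosphatase-related genes, were at most 0.0646, 0.167 and 0.475 FPKM. Whether their products remove LPA or S1P was not tested. Plpp1 (Ppap2a in the table), a phospholipid phosphatase, was at 6.48 FPKM in E16.5, 3.68 in E18.5, 75.9 in P7 and 49.9 in P28. Plpp3 (Ppap2b), a related phosphatase, was at 11.9, 7.85, 27.8 and 99.7 FPKM. Plpp1 was 15.9%, 7.87%, 5.13% and 13.7% of the endothelial marker sum in order of age, and the part of endothelial RNA in its P7 value was not tested. Of 9 breakdown genes measured, 4 reached 5 FPKM in E16.5 or E18.5, and 0 of these were called on either scale. Over all genes 2.32% were called higher and 47.4% lower there, or 9.34% and 12.2% after scaling. At P7 against E18.5, 3 of 4 were called higher and 0 lower, near the 63.3% of all genes. After scaling 1 (Plpp1) was higher and 1 (Sgpl1) lower, beside 14.7% and 12.0% of all genes, and the list median was 0.35 (-0.04). At P28 against P7, of 5 at that level, Plpp3 and Sgpp2 were called higher on either scale and 0 were lower. The shares of all genes were 10.5% higher and 16.9% lower, or 14.6% and 10.3% after scaling. Sgpp2, an S1P phosphatase, went from 0.429 to 8.52 FPKM, beside the epithelial marker sums of P28 given above. Sgpl1, the S1P lyase, was at 16.5, 17.2, 14.0 and 7.20 FPKM. At P28 against E16.5, of 5 at that level, Plpp1, Plpp3 and Sgpp2 were called higher and Sgpl1 lower, the last not after scaling. Here 18.0% of all genes were higher and 16.9% lower, or 19.7% and 15.0% after scaling.

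Of 10 genes of S1P synthesis and export, 4 reached 5 FPKM at P7. Spns2 and Acer2 were called higher at P7 than at E18.5 and lower at P28 than at P7, on either scale. At P28 against P7, 16.9% of all genes were called lower, or 10.3% after scaling. Abcc1 and Asah1 were also called higher at P7, but not after scaling, so that 4 of 4 were called as deposited beside 63.3% of all genes, and the list median was 1.14 (0.32). Spns2, the S1P transporter, was at 0.370 FPKM in E16.5, 0.297 in E18.5, 29.5 in P7 and 4.26 in P28. Acer2, a ceramidase that releases sphingosine, was at 0.681, 1.12, 46.1 and 17.4 FPKM. These 2 genes were high in the libraries in which S1pr1 was high, and the endothelial marker sums given for S1pr1 apply to them too: Spns2 was 0.909%, 0.635%, 2.0% and 1.17% of that sum. Asah1, a lysosomal ceramidase, was the most abundant of the list at 9.16 to 22.2 FPKM. Neither sphingosine kinase reached 5 FPKM, with Sphk1 at 4.56 and Sphk2 at 4.77 at P28. Over the whole course, of 2 genes at 5 FPKM or more, Acer2 was called higher and 0 were lower. Over all genes 18.0% were higher and 16.9% lower, or 19.7% and 15.0% after scaling.

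Among 13 other enzymes that form or use LPA, 7 reached 5 FPKM at E16.5 or P28, and of these 4 were called higher at P28 than at E16.5 and 0 lower (5 and 0 after scaling). Over all genes 18.0% were called higher (19.7% after scaling). The median over all 13 listed genes, with those under 5 FPKM, was 0.83 (0.90). Over all genes at 5 FPKM or more it was -0.09 (0.02). Gpam, which makes LPA inside the cell for glycerolipid synthesis, was at 7.90, 4.28, 4.14 and 21.7 FPKM, and Gde1, a glycerophosphodiesterase, at 5.34, 2.87, 4.57 and 16.2. From P7 to P28, of 7 at 5 FPKM, Gde1 and Gpam were called higher and 0 lower (3 and 0 after scaling). The shares of all genes were 10.5% higher and 16.9% lower (14.6% and 10.3%). The alveolar type 2 and airway markers given above were highest in the same P28 library, and their part in these values was not tested. Liph, a phospholipase that forms LPA from phosphatidic acid, was at most 1.27 FPKM, and the related gene Pla1a at most 0.843, each at P28. From E16.5 to E18.5, 0 of 4 at 5 FPKM were called, or 1 of 3 after scaling (Agpat4, higher). Over all genes 2.32% were higher and 47.4% lower there (9.34% and 12.2%). From E18.5 to P7, 3 of 4 at 5 FPKM were higher and 0 lower (1 and 1 of 5 after scaling). Beside this, 63.3% of all genes were higher (14.7%).

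No other ENPP gene had its highest value at E18.5, as Enpp2 did. Enpp5 was at 0.775, 6.81, 4.39 and 16.2 FPKM, highest at P28. It was called higher at E18.5 than at E16.5 on either scale, beside 2.32% of all genes (9.34% after scaling). At P7 against E18.5 it differed by -0.53, not called, and by -1.60 after scaling, called lower. The shares of all genes called lower there were 2.89% and 12.0%. At P28 against P7 it was called higher on either scale, beside 10.5% of all genes (14.6%). Enpp1, which makes pyrophosphate from nucleotides, was at 1.60, 0.721, 15.4 and 1.39 FPKM. It was called higher at P7 than at E18.5, beside 63.3% of all genes (14.7% after scaling). At P28 it was called lower again than at P7, beside 16.9% (10.3%). At P28 against E16.5, Enpp5 alone was called, as higher, beside 18.0% of all genes (19.7%), and the list median was 0.82 (0.79). Of the 6 genes of the list, Enpp3, Enpp4, Enpp6 and Enpp7 stayed under 5 FPKM.

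**Figure D5:**
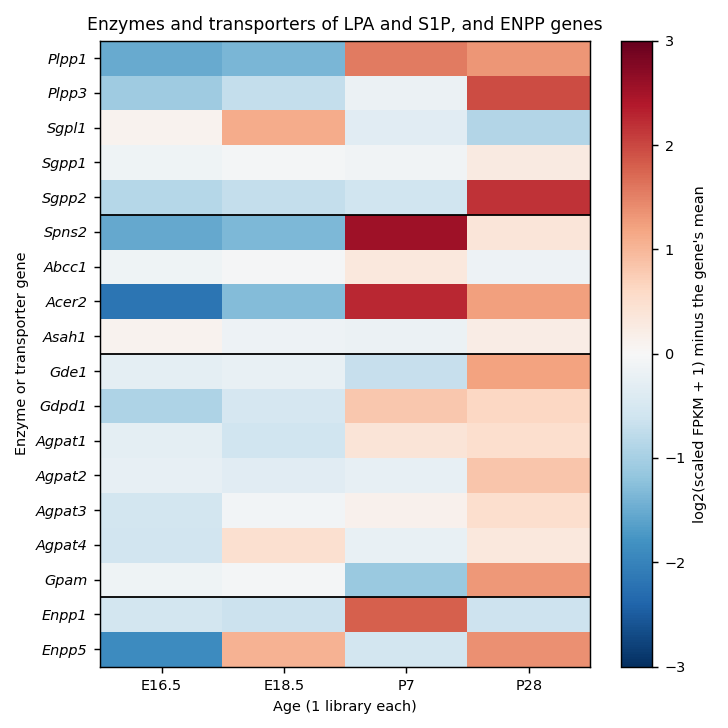
Courses of the 18 genes that reached 5 FPKM in any library, as log2(median-ratio scaled FPKM + 1) minus the gene's mean (colour), with 1 library per column. Black lines divide breakdown, synthesis and export, other LPA enzymes and other ENPP genes; Spns2, Acer2 and Enpp1 are highest at P7, and Plpp3, Sgpp2 and Gpam at P28.

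Downstream of the receptors, 17 genes for G protein alpha subunits, small GTPases, their exchange factors and their kinases showed few calls once scaled. Gnas was at 227 to 846 FPKM, Rhoa at 65.3 to 159 and Gnai2 at 32.6 to 157, each lowest at E18.5 and highest at P7 as deposited. At E18.5 against E16.5, 0 of 15 at 5 FPKM were called higher and 6 lower, beside 47.4% of all genes lower, and 0 were called after scaling. At P7 against E18.5, 13 of 16 were higher and 0 lower, beside 63.3% of all genes higher. After scaling 2 were higher and 1 lower, beside 14.7% and 12.0%, with Gna12, a subunit that activates guanine nucleotide exchange factors, at 6.12 and 39.3 FPKM. The list median was then 1.76 (0.61), beside 1.23 (0.05) over all genes at 5 FPKM or more. At P28 against P7, 0 of 16 were higher and 3 lower (0 and 1 after scaling), beside 16.9% of all genes lower (10.3%). At P28 against E16.5, 4 of 15 were higher and 0 lower on either scale, beside 18.0% higher (19.7%), among them Arhgef12, a guanine nucleotide exchange factor, at 13.2 and 29.8 FPKM.

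Of 15 genes of SRF, MRTF and YAP signalling with their targets, 11 reached 5 FPKM at E16.5 or E18.5. At E18.5 1 of these was called higher and 6 lower as deposited, beside 2.32% and 47.4% of all genes, and 2 and 0 after scaling, beside 9.34% and 12.2%. Ccn1 (Cyr61), a matricellular YAP target lower at E18.5 as deposited, was at 140, 62.0, 48.7 and 61.4 FPKM. At P7 against E18.5, 5 of 11 were higher and 2 lower, beside 63.3% and 2.89% of all genes, and 4 and 4 of 12 after scaling, beside 14.7% and 12.0%. The list median was 0.64 (-0.45), against 1.23 (0.05) over all genes at 5 FPKM or more. Wwtr1 is counted among the lower ones, but was listed at 0 at P7 against 9.43 to 14.2 FPKM in the other libraries, and an exact 0 in this table can be a value that was not estimated. Its return makes up the 1 call at P28 against P7. At P28 against E16.5, 4 of 11 were higher and 3 lower (4 and 2 after scaling), beside 18.0% and 16.9% of all genes (19.7% and 15.0%), with Lats2 at 18.1 and 39.7 FPKM and Ptgs2, a prostaglandin synthase, at 7.44 and 2.71.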

How the data were processed

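RNA of Pdgfra+ lung fibroblasts was sequenced from 4 ages, with 1 library each. Per the labels' protocols, a QIAamp Circulating Nucleic Acid Kit gave the RNA, and paired-end libraries were made with Nextera XT. Per the submitters' processing notes, TopHat2 2.0.9 and the builds GRCm38 and mm10 were used. For the program that computed FPKM and for any strand setting the sources used here give nothing. Per the file headers, the deposited table holds FPKM made by the authors for 23931 entries. Entries that share a symbol (258 symbols) were summed here, and 0 of the 9 members were among these. Depth is unknown; the most common ratio between values below 0.1 FPKM put the depth of E16.5 at about 1.39, 0.946 and 1.06 times that of E18.5, P7 and P28.

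No significance test was run, since each age has 1 library. Differences of log2(FPKM + 1) were called at 2-fold with at least 5 FPKM in the higher library. Median-ratio factors used 7930 genes at 1 FPKM or more in every library. Named genes were the members, the 3 remaining receptors, per list the 3 most abundant and, for pathway lists, the 3 with the widest range, genes overlapping a member, and the genes of nearest course among those at 10 FPKM or more. Ccl21a, Prox1, Sphk1, Sphk2, Pla1a, Liph, Agpat4, Enpp3, Enpp6, Enpp7, Notch3, Plppr1, Plppr4 and Plppr5 were named after their values were seen. Some genes that the rule names are not reported here. Members and lists were chosen with earlier results of these data known. Coordinates are from GENCODE M21 on GRCm38. The calling script was tested on simulated data with known differences. Python 3.11.15, numpy 2.4.6, pandas 2.3.3 and matplotlib 3.10.9 were used.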

Additional observations from a re-analysis of the deposited data

How the results depend on the processing

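With 1 library per age no spread exists, so stability here means only that a call or direction held under another setting. Of 207 alternative values for the 36 member differences, 170 kept their direction and call, 34 did not keep both and 3 calls changed sign. A difference not called, or under 5 FPKM, in both settings counts here as keeping its call. The counts thus do not measure the stability of the calls alone. The calls that changed sign were those of Lpar1 and Enpp2. Lpar1 did so for P7 against E18.5 with median-ratio (-0.0257) and upper-quartile scaling (-0.14). Enpp2 did so for P7 with E16.5 in place of E18.5 (0.66). None of these 3 values reached 2-fold. The Lpar1 values differ from the deposited one only by the library factors, and the Enpp2 value sets P7 against another library. For E18.5 against E16.5, the count called lower was 0 with a pseudocount of 5, a minimum of 20 FPKM or a 4-fold threshold, and 2 were called higher (S1pr3 added) with upper-quartile scaling. For P7 against E18.5, a minimum of 20 FPKM gave 1 higher (S1pr1) and 1 lower (Enpp2), and E16.5 in place of E18.5 gave 1 higher (S1pr1) and 1 lower (S1pr3). For P28 against P7, no minimum or one of 1 FPKM gave 2 higher (Lpar3 added), a minimum of 20 FPKM gave 0 higher and 1 lower, and a 4-fold threshold gave 0 and 0. S1pr1 was the 1 member called lower there with a pseudocount of 5, median-ratio scaling with or without the E18.5 library, and upper-quartile scaling. For P28 against E16.5, a pseudocount of 0.1 gave 2 higher (Lpar1 added), and a common total without erythroid and ribosomal protein genes gave 1 lower (Lpar6). Settings that use the E16.5 library for E18.5, or leave E18.5 out of the scaling, were added after seeing the data. Genes of nearest course without scaling shared 1 of 3 with those given for Lpar1, S1pr1 and S1pr2.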

Other observations

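P7 was also set against E16.5 for the members, because of the different scale of the E18.5 library; this comparison was chosen after seeing the data. On the log2 scale as deposited, the rare LPA receptors differed by -0.35 (Lpar2), -0.55 (Lpar3) and 0.34 (Lpar4), Lpar1 by 0.59 and S1pr2 by -0.50. After median-ratio scaling S1pr1 differed by 4.22, S1pr3 by -2.20, Enpp2 by 0.41, Lpar6 by 0.23 and Lpar1 by 0.35. Over all genes at 5 FPKM or more 15.7% were called higher and 6.68% lower, or 12.3% and 9.62% after scaling. Endothelial markers were called higher in 16 of 16 cases on either scale, and leukocyte markers lower in 10 of 10. Of the immediate early genes 2 of 16 at that level were called higher and 9 lower on either scale.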
